A study of Mus musculus with 4 samples.

Results

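The AK probes of this mouse array are the non-control probes whose only name is a cDNA accession made of the letters AK and digits. They numbered 2480 of 55681 non-control probes and represented 2437 accessions. A probe was followed further when the scanner software called it well above background on all 4 arrays, which held for 894 AK probes (36%) of 887 accessions. Probes named by an NM_ accession, the RefSeq prefix for curated messenger RNAs, served as the reference, and 15591 of 26585 (58.6%) passed the same requirement.

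Accessions with the AK prefix were given mostly to full-length cDNA clones, in mouse largely those of the RIKEN and FANTOM sequencing projects. That collection reaches beyond annotated protein-coding genes: it contains many transcripts with little coding potential, and some clones that keep introns or come from partly processed RNA. SF3B1 is a subunit of the U2 small nuclear ribonucleoprotein, the spliceosome particle that recognises the branch point of an intron, and SF3B1 is often mutated in myelodysplastic syndromes.

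RNA came from LSK cells, the bone marrow fraction that lacks lineage markers and carries c-Kit and Sca-1, in which blood stem cells and early progenitors lie. There were 4 groups with 1 single-colour array apiece, each hybridised from 20 ng of total RNA, and all mice were labelled C57BL/6. Wild-type native and Sf3b1+/- native cells were taken from mice aged 20 weeks (4 mice, per the design text). Wild-type transplanted and Sf3b1+/- transplanted cells descended from whole CD45.2+ marrow of either genotype, placed in lethally irradiated CD45.1+ hosts (5 mice, per the design text) and sorted as CD45.2+ LSK cells 9 months later. The labels do not say how many mice went onto an array or which part of Sf3b1 the mutant allele lacks, and they give no age for the transplanted cells. Age and irradiated host therefore cannot be told apart from transplantation. With 1 array a group, a difference within a setting has no replicate check. The pair of arrays of each genotype allowed 1 additive fit over both settings. Its residual is the change of the genotype difference from one setting to the other, and not a spread between replicates. Most weight in its error fell on a variance shared over all compared probes (5.05 degrees of freedom, against 1 from the probe itself). The SE and p-values of this fit therefore do not measure the variation between mice.

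All 10 LSK markers, among them Kit and Ly6a (which encodes Sca-1), were well above background on every array. So were all 7 megakaryocyte and all 6 neutrophil markers, 5 of 8 T and NK markers, 3 of 8 B markers and 2 of 6 measured macrophage markers. The B-cell factor Pax5 was above background on none. The summed signal of the megakaryocyte list was 21300, 39100, 28800 and 81100 units. Values by array are given throughout in the order wild type then Sf3b1+/-, first for native and then for transplanted cells. The B list summed to 14200, 6420, 4590 and 6030 units and the neutrophil list to 6800, 7700, 14900 and 11000 units. The sums of the T and NK list spanned 17900 to 29300 and of the macrophage list 4480 to 9950 units. Most of the macrophage sum was Csf1r, the receptor of macrophage colony-stimulating factor. The macrophage genes C1qa, C1qc and Mrc1 were above background on 1 array, Sf3b1+/- transplanted, at 80.2, 117 and 36.5 units, and lay at or below 21.4 units elsewhere. Of the erythroid genes, Hba-a1, an alpha-globin, gave 51.4, 101, 86.2 and 308 units. These sums differed between the groups, and their part in the AK results was not tested. The Sf3b1 probe gave 362, 320, 250 and 341 units, which after scaling placed Sf3b1+/- cells 0.41 (native) and 0.11 (transplanted) log2 units below wild type; whether that probe lies in the deleted part is not known here.

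AK probes were mostly dim. Of the 2480, 1344 (54.2%) were well above background on no array, and 83, 87 and 72 passed on 1, 2 and 3 arrays. The number detected per array was 966, 981, 1039 and 1063, from 39% to 42.9%. Among the 894 compared probes the median signal was 129, 140, 159 and 203 units, while the local background around spots was 42 to 45 units. Signals were divided on each array by the 75th percentile of all probes detected on every array (1652, 1940, 1823 and 2686 units) and taken to log2, so a level of 0 is that percentile. The median AK level was then -3.67, -3.79, -3.52 and -3.73. The scanner's own error model gave a median error of 0.21 to 0.22 log2 units for a difference between a pair of arrays, which covers a spot's measurement and not the variation between mice.

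The bright end of the AK set held a few probes far above the rest. AK146304 gave 178000, 193000, 220000 and 259000 units, and AK136409 gave 172000, 178000, 202000 and 205000 units. AK030082 followed at 143000, 154000, 148000 and 169000 units. Brightness also depends on the probe, so these values rank spots and not transcripts. Of the 10 brightest AK probes, AK146165 was the only one higher in Sf3b1+/- transplanted than in wild-type transplanted cells, by 0.23 log2 units, after -0.25 in native cells. AK016943 showed the opposite extreme among them, with levels of 6.04, 5.73, 6.06 and 5.41 and differences of -0.32 and -0.65.

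The first comparison asked how Sf3b1+/- cells differed from wild-type cells in each setting. AK probes lay lower in Sf3b1+/- cells, by a median of 0.11 log2 units below wild type in native cells (difference -0.11, quartiles -0.31 and 0.09) and more in transplanted cells (-0.29, quartiles -0.53 and -0.03). NM_ probes were centred at 0.00 and 0.01 in the same comparisons, and all 24731 compared probes at -0.04 and -0.08. AK differences were below 0 for 66.7% of probes in native and 76.8% in transplanted cells, against 49.9% and 49.2% of NM_ probes. The sign of these medians depends on the scaling. Scaled on the spike-in RNAs, AK medians were 0.12 and 0.32 and NM_ medians 0.23 and 0.62, because every probe moved up by the same amount in a comparison (the median of all probes to 0.19 and 0.53). What kept its value under spike-in scaling was the gap between the AK and NM_ medians, -0.11 in native and -0.30 in transplanted cells. Directions given from here on are relative to the 75th-percentile scaling.

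**Figure D1:**
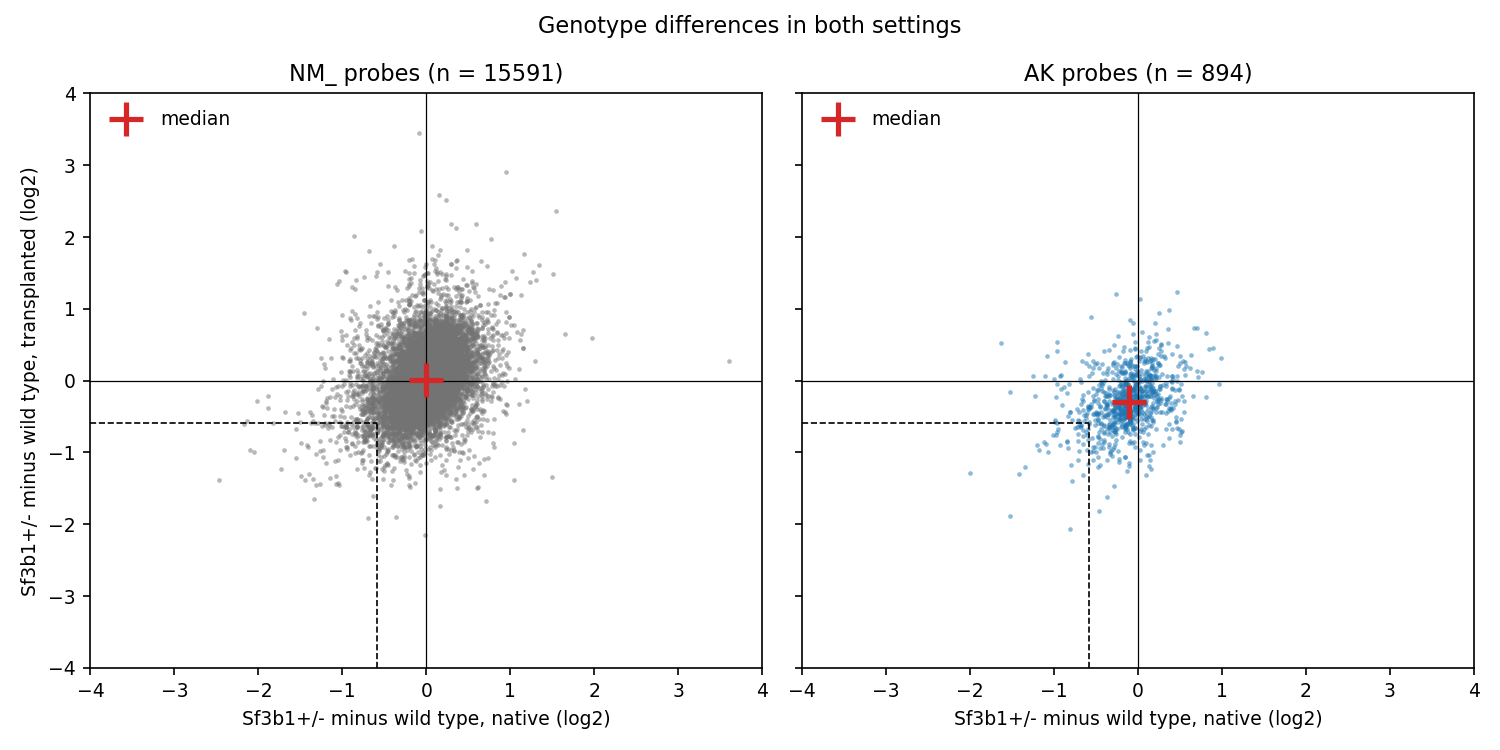
Genotype difference (Sf3b1+/- minus wild type, log2) in native cells on the horizontal axis and in transplanted cells on the vertical axis, for 15591 NM_ probes (left) and 894 AK probes (right), 1 point a probe; the red cross is the median and the dashed corner encloses probes at least 1.5-fold lower in both settings. The NM_ cross sits at the origin, while the AK cross sits at -0.11 and -0.29.

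The shift was shared by other probes without an NM_ name. Probes named by genome position, of which 4163 were compared, had medians of -0.12 and -0.29, and 66.3% and 77.3% of them were below 0. ENSMUST probes (Ensembl transcripts, 852 compared) had medians of -0.10 and -0.20, and NR_ probes (RefSeq non-coding transcripts, 438 compared) of -0.12 and -0.23. The AK medians were thus close to those of the position-named probes, and nothing in the size of the shift set AK accessions apart from them. No test was made between the classes, since probes on 1 array are not replicates.

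**Figure D2:**
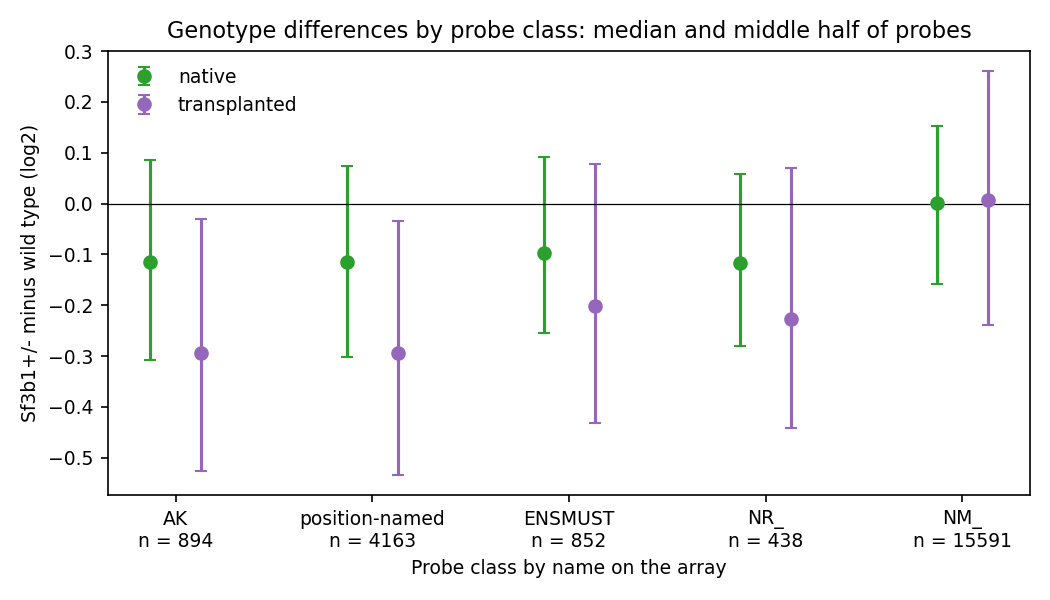
Median genotype difference (log2, points) with its quartiles (bars) for 5 classes of probes by the kind of name on the array, in native (green) and transplanted (purple) cells. AK and position-named probes have transplanted medians of -0.29, whereas NM_ probes are centred near 0 in both settings.

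Because AK probes are dimmer than NM_ probes, the comparison was repeated within 4 bins of mean level, each holding about 25% of all compared probes. The lowest bin held 351 AK probes (39.3%) and the highest held 76 (8.5%). AK medians from the lowest to the highest bin were -0.13, -0.09, -0.11 and -0.15 in native cells. In transplanted cells they were -0.30, -0.27, -0.31 and -0.37. NM_ medians in the same bins lay between -0.04 and 0.03 in native and between -0.05 and 0.05 in transplanted cells. The AK median was therefore below the NM_ median in every bin, the brightest included. Counts of large differences did vary with level: 21, 13, 1 and 0 AK probes were at least 2-fold lower in Sf3b1+/- transplanted cells from the lowest to the highest bin. As shares these were 5.98%, 4.26%, 0.617% and 0%, against 3.15%, 1.73%, 0.696% and 0.291% of all compared probes. Both fell with level, and in transplanted cells the AK share exceeded the background only in the lower 2 bins. In native cells 9, 5, 2 and 1 AK probes (2.56%, 1.64%, 1.23% and 1.32%) were at least 2-fold lower. Over all compared probes the native shares were 1.55%, 0.89%, 0.534% and 0.275%. The native AK share was thus higher in every bin, with very few AK probes behind it in the upper 2.

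**Figure D3:**
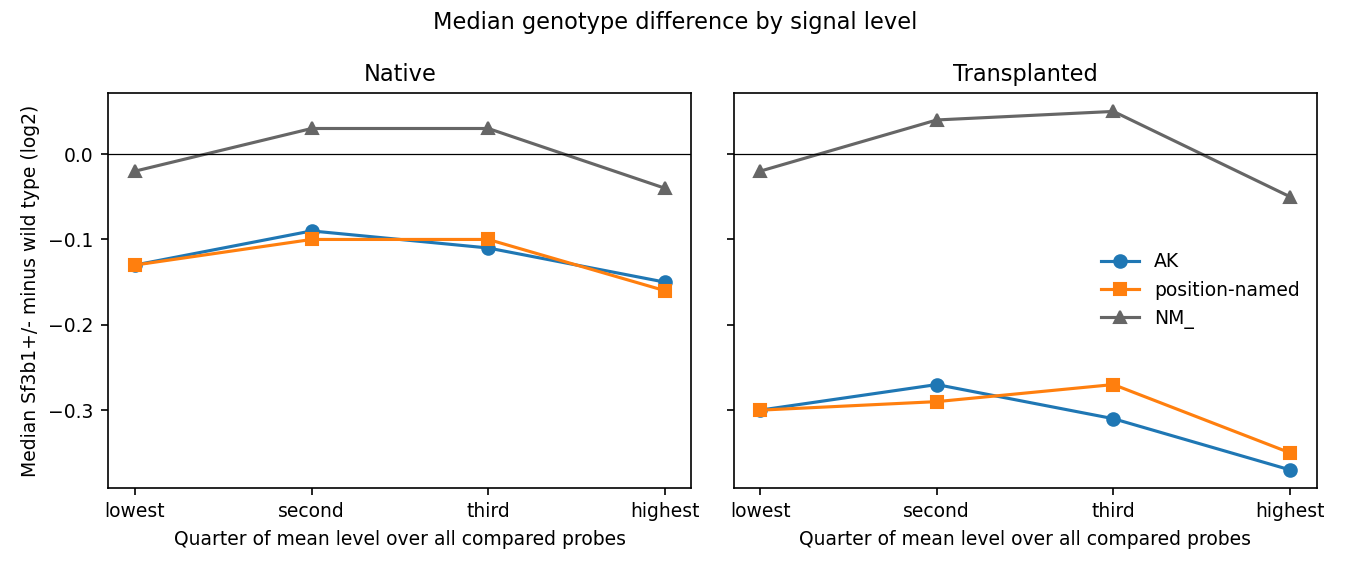
Median genotype difference (log2) of AK, position-named and NM_ probes in 4 bins of mean normalized level, native cells on the left and transplanted cells on the right. AK and position-named lines run together below the NM_ line in every bin, from -0.27 to -0.37 for AK probes in transplanted cells.

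Accession numbers broadly follow the order in which clones were submitted, so the shift was also read along the series in blocks of 10000 accessions. The 13 blocks with at least 20 compared probes held 880 of the 894. Their medians ran from -0.19 to -0.05 in native and from -0.40 to -0.12 in transplanted cells, all of them below 0. The share of AK probes detected on all 4 arrays varied more, from 27.9% of 129 probes (AK000000 to AK009999) to 70% of 30 probes (AK170000 to AK179999).

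Large genotype differences were few, and mostly downward under the 75th-percentile scaling. Under spike-in scaling 6 AK probes were at least 2-fold higher and 8 lower in native cells, and 45 higher and 4 lower in transplanted cells. That scaling raised the medians of all compared probes to 0.19 and 0.53. It left 0.269% and 0.0385% of NM_ probes at least 2-fold lower in native and transplanted cells. In native cells, 17 AK probes (1.9%) were at least 2-fold lower in Sf3b1+/- cells. The shares were 0.813% of all compared, 0.616% of NM_ and 1.20% of position-named probes. No AK probe was at least 2-fold higher (0.449% of all compared probes), but AK045571 and AK164857 came just under, at 1.99-fold and 1.96-fold. In transplanted cells 35 AK probes (3.91%) were at least 2-fold lower, against 1.47% of all, 0.808% of NM_ and 3.19% of position-named probes. In the other direction 3 AK probes (0.336%) were at least 2-fold higher, against 1.1%, 1.38% and 0.288%. Of the 2-fold lower probes, 4 were common to both settings, which is 23.5% of the native and 11.4% of the transplanted list; over all compared probes the shared part was 24.4% and 13.5%. The normexp background correction draws dim probes towards each other by adding an offset of 50 units. It left 4 and 7 AK probes at least 2-fold lower, beside 0.173% and 0.244% of NM_ probes. Shares over all compared probes are not given for the spike-in and normexp counts. Those counts are therefore not read as a result about AK probes.

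A milder threshold applied to both settings at once gave 41 AK probes (4.59%) at least 1.5-fold lower in Sf3b1+/- cells. The background was 1.76% over all compared probes and 1.06% over NM_ probes. Position-named probes came close to the AK share, at 4.01%. Only 3 (0.336%) were at least 1.5-fold higher in both, with a background of 0.558%. No AK probe was at least 1.5-fold apart in opposite directions, where 0.368% of all compared probes were. The median fold among the 41 was 1.72 in native and 1.8 in transplanted cells, and their mean signals ran from 37.8 to 3340 units. After normexp correction 13 AK probes were at least 1.5-fold lower in both settings, and after spike-in scaling 4 were lower and 32 higher. Without shares over all compared probes, these counts show only that the number depends on the processing. Both Sf3b1+/- levels lay below both wild-type levels for 36 of the 41, which the choice of these probes by their differences made likely in advance. Over all 894 this non-overlap held for 314 (35.1%), against 24.9% of all compared probes, 18.2% of NM_ probes and 38.3% of position-named probes. The opposite non-overlap held for 49 AK probes (5.48%), against 14% of all compared probes, 18% of NM_ probes and 5.62% of position-named probes. Genotype differences in native and transplanted cells correlated weakly across AK probes (Pearson's r 0.33, Spearman's rho 0.34, n = 894 probes, which share the same 4 arrays and are not independent replicates). The same r and rho were 0.38 and 0.45 over all compared probes, 0.38 and 0.43 over NM_ probes, and 0.38 and 0.38 over position-named probes.

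The additive limma fit over all 24731 probes, with setting as covariate, called no AK probe for genotype after Benjamini-Hochberg adjustment at 0.05. The background was 0% over all compared probes in either direction, and the smallest adjusted p among AK probes was 0.0916. Without adjustment, 198 AK probes (22.1%) were lower and 21 (2.35%) higher in Sf3b1+/- cells at p below 0.05 in limma, where 11.5% and 5.54% of all compared probes were. Other treatments of the signal changed the adjusted count. After a normexp background correction limma called 54 AK probes lower and 1 higher (2.66% of all compared probes called), and after spike-in scaling 5 lower and 23 higher (5.93% of all).

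AK020766 had the largest deficit common to both settings. It and the probes named after it were chosen by their genotype differences, so a separation of the genotypes was likely in advance. Its signal was 223, 91.1, 276 and 111 units, and its level -2.89, -4.41, -2.72 and -4.60. Both Sf3b1+/- arrays lay well under both wild-type arrays. Relative to wild type it was down 2.87-fold in native cells and 3.68-fold after transplantation, and the fitted genotype difference in limma was -1.70 ± 0.16 (SE, unadjusted p = 3.9e-05, Benjamini-Hochberg adjusted p = 0.0916).

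AK042442 repeated that pattern with less spread between the settings. Its signal was 241, 106, 276 and 165 units and its level -2.78, -4.20, -2.73 and -4.02, with no overlap between genotypes. It was 2.68-fold and 2.46-fold lower in Sf3b1+/- cells, and limma gave -1.36 ± 0.15 (SE, adjusted p = 0.0916). Setting made little difference to this probe, by 0.05 log2 units in wild-type and 0.17 in Sf3b1+/- cells.

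AK220476 was the brightest of the 6 and had the largest native difference of all AK probes. Its signal was 966, 283, 732 and 441 units and its level -0.77, -2.78, -1.32 and -2.61. The genotypes did not overlap, although the wild-type arrays themselves differed by 0.54 log2 units. Native cells showed a 4.01-fold deficit and transplanted cells a 2.45-fold one, with -1.65 ± 0.20 in limma (SE, adjusted p = 0.114).

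AK037533 gave 99, 45.9, 113 and 72.4 units and was 2.53-fold and 2.30-fold lower in Sf3b1+/- cells (limma adjusted p = 0.104). AK009736 gave 310, 173, 478 and 355 units and levels of -2.41, -3.48, -1.93 and -2.92, with differences of -1.07 and -0.99. AK035200 gave 109, 56.7, 111 and 83.3 units, with differences of -1.18 and -0.97. In all 3 the Sf3b1+/- levels were below both wild-type levels. AK009736 was also higher after transplantation in both genotypes, by 0.48 and 0.56 log2 units, while AK037533 and AK035200 differed by at most 0.19 between settings.

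The 3 AK probes at least 1.5-fold higher in both settings were dim. AK038979 gave 36.6, 69.8, 43.1 and 105 units and levels of -5.49, -4.80, -5.40 and -4.67, so it was 1.62-fold and 1.66-fold higher in Sf3b1+/- cells. AK158414 gave 69.1, 142, 80.2 and 188 units and was 1.75-fold and 1.60-fold higher. AK037412 gave 29.5, 54.9, 31.5 and 77.7 units and was 1.59-fold and 1.67-fold higher. Both Sf3b1+/- levels of each exceeded both wild-type levels, and the limma adjusted p was 0.162 for all 3. AK045208, AK020106 and AK032738 came next, with smaller-of-both differences of 0.47, 0.46 and 0.45.

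**Figure D4:**
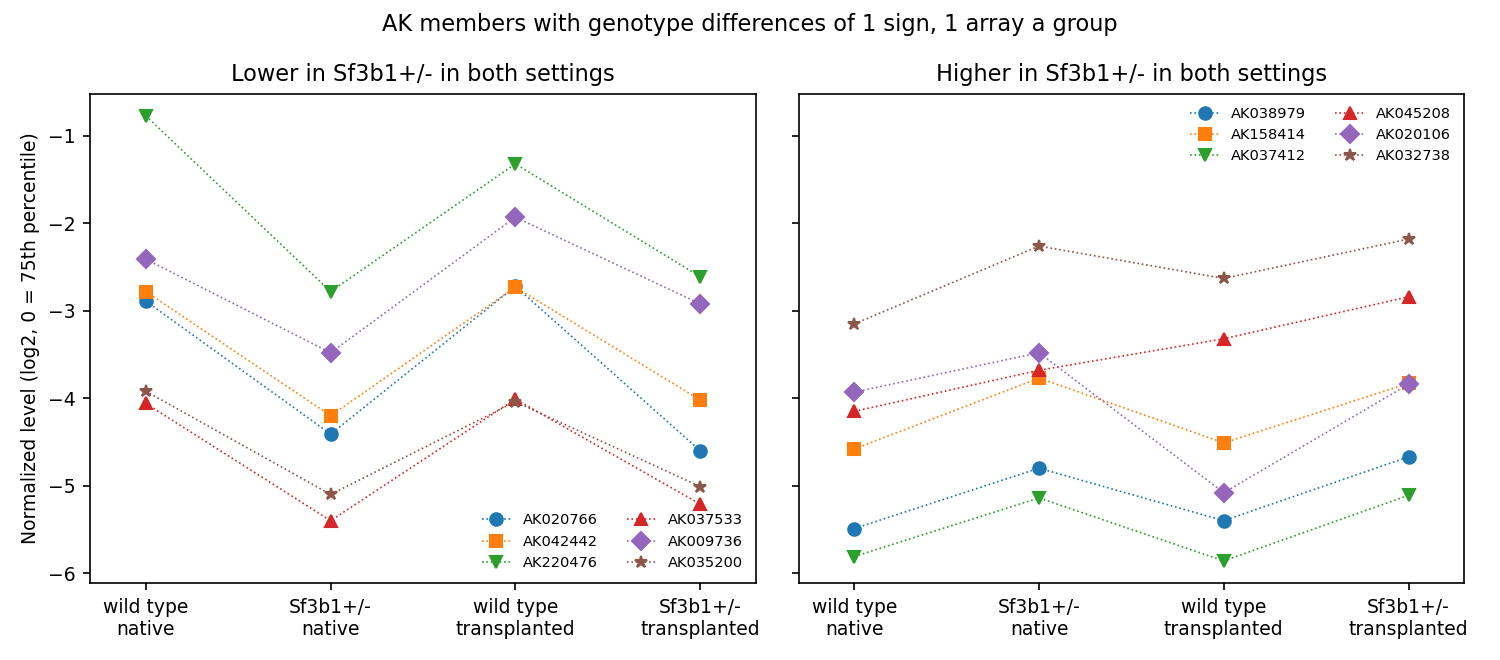
Normalized level (log2, 0 is the 75th percentile) on each of the 4 arrays for the 6 AK probes most strongly lower (left) and higher (right) in Sf3b1+/- cells in both settings; each point is 1 array and dotted lines join the points of a probe. All 6 probes on the left step down from wild type to Sf3b1+/- in both settings, AK020766 from -2.89 to -4.41 and from -2.72 to -4.60.

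Other probes differed more by genotype in transplanted than in native cells. AK015108 gave 43.8, 29.3, 70.8 and 25 units and was 4.18-fold lower in Sf3b1+/- transplanted cells, against 1.76-fold in native cells, its last value being the lowest AK signal detected on that array. AK077204 gave 184, 157, 237 and 99.5 units and was 3.51-fold lower in Sf3b1+/- than in wild-type transplanted cells, against 1.38-fold in native cells. AK054182, at 72, 65.3, 82.2 and 39.4 units, was 3.07-fold lower in Sf3b1+/- transplanted and 1.30-fold lower in Sf3b1+/- native cells. In each, the Sf3b1+/- transplanted array had the lowest of the 4 levels. Whether the genotype difference itself differed between settings could not be tested with 1 array a group.

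In a few probes a single array stood furthest from the rest. AK165889 gave 44.9, 43.9, 47.1 and 160 units and was 2.31-fold higher in Sf3b1+/- transplanted than in wild-type transplanted cells, but 1.20-fold lower in native cells. AK078618, higher on both transplanted arrays and most on the Sf3b1+/- one, gave 41.1, 32.8, 73.1 and 198 units, with genotype differences of -0.56 and 0.88. AK016840 was high in wild-type native cells alone, at 82, 33.4, 31.7 and 41.7 units, so its native genotype difference was -1.53 and its transplanted difference -0.16. AK020106 was low in wild-type transplanted cells alone, at 108, 174, 54 and 187 units, and was 2.36-fold higher in Sf3b1+/- cells there.

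The next comparison set transplanted against native cells within each genotype. Wild-type AK probes lay slightly higher after transplantation (median 0.14) and Sf3b1+/- AK probes did not (-0.02), while NM_ medians were 0.00 and 0.01. These comparisons use the same arrays as the genotype comparison, so their medians are not separate evidence. At least 2-fold higher after transplantation were 42 AK probes (4.7%) in wild type, against 2.01% of all compared probes, and 29 (3.24%) in Sf3b1+/- cells, against 3.14%. At least 2-fold lower were 9 (1.01%) in wild type, against 0.983%, and 15 (1.68%) in Sf3b1+/- cells, against 1.6%. Only the wild-type share of higher probes was far from its background, and other classes without an NM_ name also lay above that background. It was 4.11% for ENSMUST, 2.79% for position-named and 2.28% for NR_ probes. The wild-type medians of these classes were 0.14, 0.10 and 0.10, so the rise was not particular to AK probes.

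In both genotypes, 14 AK probes (1.57%) were at least 2-fold higher after transplantation, with a background of 1.01%, and 1 (0.112%) was at least 2-fold lower, with a background of 0.352%. The levels of both transplanted arrays lay above both native arrays for 239 AK probes (26.7%), against 26% of all compared probes, and below them for 158 (17.7%), against 22.8%. The limma fit called 54 AK probes for setting at an adjusted p below 0.05. Of these, 45 (5.03%) rose after transplantation, with a background of 2.33%, and 9 (1.01%) fell, with a background of 1.12%. The 45 rose by a median of 0.98 log2 units and the 9 fell by a median of 0.90. This count depended on the scaling: 13 (1.45%) were called with the percentile taken over all probes, where 0.946% of all compared probes were, 9 (1.01%) in the deposited series table, where 0.768% were, and 0 after quantile normalization or when probes detected on at least 2 arrays were admitted. Scaled on the spike-in RNAs, where AK medians were 0.59 and 0.81 and NM_ medians 0.45 and 0.84, 529 AK probes were called higher and 2 lower (56.9% of all compared probes called). After normexp correction 70 were called higher and 59 lower (12.7% of all). The probes named next passed limma's adjustment under the 75th-percentile scaling and missed it under the settings with 0 calls. They were chosen by their transplantation differences, so a separation of transplanted from native levels was likely in advance.

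AK143604 had the smallest adjusted p. Its signal was 177, 255, 725 and 1140 units and its level -3.22, -2.93, -1.33 and -1.24. Both transplanted arrays lay far above both native arrays, and the genotypes were close within each setting. It rose 3.70-fold in wild-type and 3.22-fold in Sf3b1+/- cells, with 1.79 ± 0.15 in limma (SE, adjusted p = 0.0119).

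AK154954 gave 30.3, 38.6, 99.3 and 213 units and rose 2.97-fold and 3.99-fold (limma adjusted p = 0.0159). AK044028 gave 54.5, 88.5, 207 and 317 units and rose 3.43-fold and 2.59-fold (limma adjusted p = 0.0191). AK160312, brighter at 283, 327, 953 and 1120 units, rose 3.04-fold and 2.49-fold (limma adjusted p = 0.0191). None of the 3 had a transplanted level within the range of its native levels. AK172642 gave 525, 596, 1410 and 1920 units, and its rise of 2.43-fold and 2.33-fold was nearly equal in both genotypes (limma adjusted p = 0.021).

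AK018519 was apart in both comparisons. Its signal was 616, 470, 1540 and 1380 units and its level -1.42, -2.05, -0.25 and -0.96. It rose after transplantation by 1.17 and 1.09 log2 units (limma adjusted p = 0.0254) and was 1.54-fold and 1.64-fold lower in Sf3b1+/- cells (limma adjusted p = 0.165). AK018162 had both differences downward: its level was -2.54, -3.47, -3.58 and -4.46, it fell after transplantation by 1.04 and 0.99 log2 units (limma adjusted p = 0.029), and its genotype differences were -0.93 and -0.89 (limma adjusted p = 0.143).

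AK016793 was the 1 AK probe at least 2-fold lower after transplantation in both genotypes; AK018162 missed that threshold in Sf3b1+/- cells at 1.99-fold. The AK016793 signal was 74, 64.4, 23.6 and 31.4 units, the transplanted values lying near the dimmest AK signals detected (22.4 to 25 units on those arrays). It fell 3.46-fold in wild-type and 2.84-fold in Sf3b1+/- cells (limma adjusted p = 0.0159). AK053520 gave 693, 638, 393 and 372 units and fell 1.94-fold and 2.37-fold (limma adjusted p = 0.0289).

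AK007918 had the largest transplantation difference among Sf3b1+/- cells and in the limma fit. Its signal was 2550, 971, 9270 and 19600 units and its level was above the 75th percentile on all but the Sf3b1+/- native array, at 0.63, 2.35 and 2.87. Both transplanted arrays were above both native arrays, with a rise of 3.29-fold in wild-type and 14.6-fold in Sf3b1+/- cells. The limma setting difference was 2.79 ± 0.46 (SE, adjusted p = 0.0394). Its genotype difference was -1.63 in native and 0.52 in transplanted cells, a contrast of 2.15 log2 units between settings that was not tested.

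**Figure D5:**
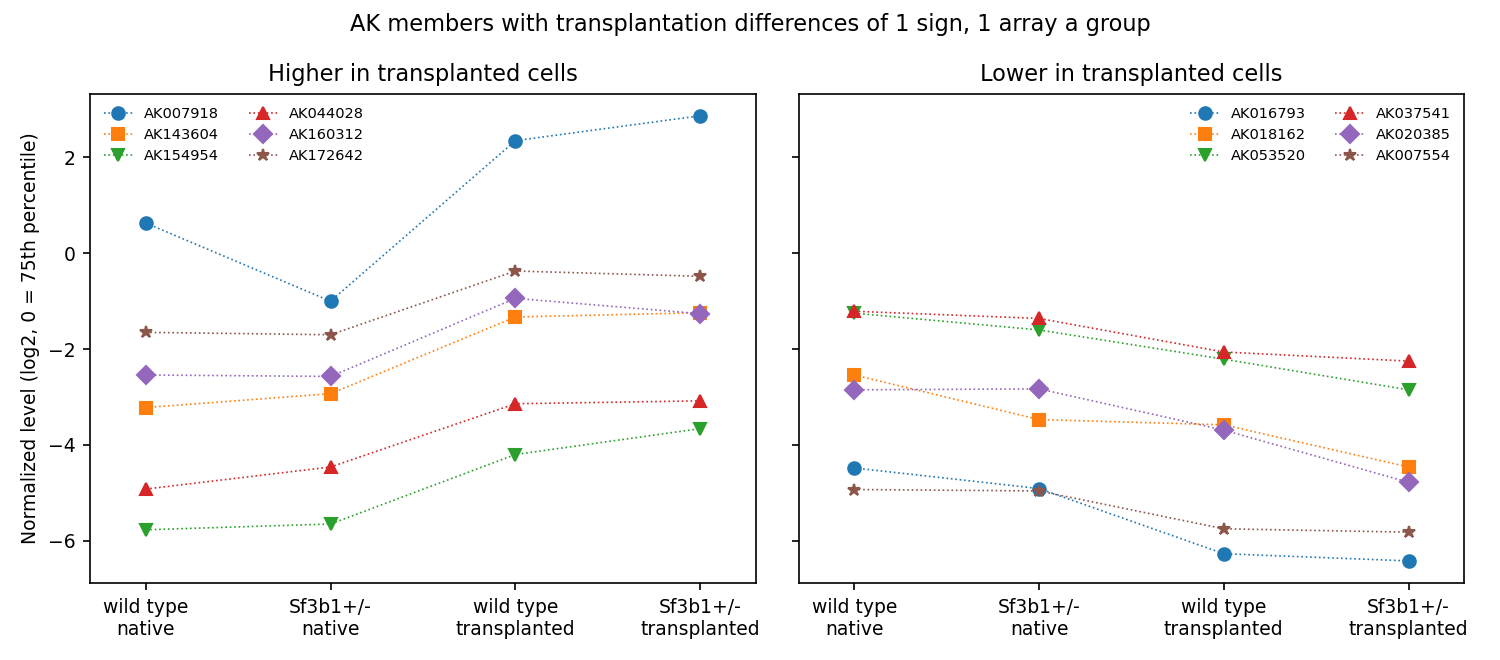
Normalized level (log2, 0 is the 75th percentile) on each of the 4 arrays for the 6 AK probes most strongly higher (left) and the 6 most strongly lower (right) in transplanted cells in both genotypes; each point is 1 array and dotted lines join the points of a probe. AK007918 ends highest, at 2.35 and 2.87 in transplanted cells, and AK016793 falls from -4.48 and -4.91 to -6.27 and -6.42.

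Some AK accessions were read by more than 1 probe, which gave a check within the arrays. Of 38 such accessions, 7 had a pair of compared probes. Their genotype differences differed within a pair by a median of 0.08 log2 units in native cells (largest 0.50) and 0.19 in transplanted cells (largest 0.38), and had the same sign in 5 and 4 of the 7 pairs. Their transplantation differences differed within a pair by a median of 0.08 in wild-type and 0.31 in Sf3b1+/- cells. The probes of AK014157 gave 147, 193, 373 and 514 units and 182, 246, 460 and 709 units. Both rose after transplantation, by 1.20 and 1.19 log2 units in wild-type and by 0.94 and 1.06 in Sf3b1+/- cells (limma adjusted p = 0.0293 and 0.0259). The probes of AK140979 parted: the wild-type transplantation difference was 1.15 at one and 0.27 at the other, and the native genotype difference 0.76 and 0.26. Those of AK042062 read 480 and 31.6 units in wild-type native cells, and their native genotype differences had opposite signs (-0.16 and 0.34).

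Probes detected in 1 condition only were rare. Both transplanted arrays and neither native array detected 44 AK probes (1.77% of 2480, background 1.44%), and the reverse held for 4 (0.161%, background 0.201%). Both Sf3b1+/- arrays and neither wild-type array detected 10 (0.403%, background 0.465%), and the reverse held for 8 (0.323%, background 0.176%). A fold for such probes is a lower bound on the difference between the mean levels of both sides. A single pair of arrays can differ by less. On the undetected side each array is set to the higher of its own signal and a floor. The floor is the lowest signal of any detected probe of the array, AK or not (19.8, 20.1, 18.9 and 22 units). AK080089 gave 22.9, 22, 56.9 and 143 units and was on average at least 3.25-fold higher in transplanted cells, with most of the rise in Sf3b1+/- cells. AK030322 gave 9.97, 5.5, 54.2 and 109 units and was on average at least 3.11-fold higher there. AK170766 gave 37.1, 8.55, 33.1 and 18.2 units and was on average at least 2.19-fold lower in Sf3b1+/- cells. AK080477, at 11.7, 30.7, 14.3 and 58.4 units, was on average at least 1.66-fold higher in them. In bulk RNA of sorted cells, fewer cells with a transcript and less of it per cell cannot be told apart.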

How the data were processed

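The deposited scanner files hold spot intensity, per the file headers the processed signal of Feature Extraction 10.7.1.1 (protocol GE1_107_Sep09, design 028005, build mm9) after background subtraction and not yet scaled from array to array. A deposited table of the whole series holds ratio values, in which the processed signal is divided by a constant for each array that puts the 75th percentile at about 1. Its scale and direction were read from the values, and it served as an alternative. Where a probe had several spots, their log2 signals were averaged. A mean of 49.5% of spots was well above background, so the 75th percentile was taken over probes detected on all 4 arrays. No spot was saturated, and the number of arrays limits the precision.

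Differences of log2 levels were counted past 2-fold, or 1.5-fold in both settings. limma 3.58.1 in R 4.3.3 fitted genotype and setting additively over 24731 probes, with 1 residual degree of freedom and Benjamini-Hochberg adjustment. Lower bounds used means of log2 levels.

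Named probes were the 10 brightest, the 6 largest differences in each direction per setting, the 6 in each direction by the smaller difference over both settings or both genotypes, and the 10 smallest adjusted p-values of limma; the text gives most of them. AK014157, AK140979, AK042062 and the probes with lower bounds were chosen after their values were seen. The members and lists were chosen with earlier results of these data known. The normexp correction, planned on the mean spot signal, used the median spot signal. Planned classes by gene name, source library or product, and a comparison with the NM_ probe of the same gene, were not made, because the columns used carry AK accessions alone; 1 of 2437 accessions matched a RefSeq synonym, and it was not compared. Gene symbols of NM_ probes came from RefSeq names. The erythroid marker list as a whole is not reported here.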

Additional observations from a re-analysis of the deposited data

Results flagged for a closer look

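AK086846 and AK166854 were the AK probes whose transplantation difference was at least 1.5-fold in both genotypes with opposite signs. AK086846 was higher after transplantation by 0.60 log2 units in wild-type cells and differed by -0.62 in Sf3b1+/- cells, from signals of 28.2, 47.3, 47.1 and 42.7 units. AK166854 differed by -0.66 in wild-type cells and was higher by 0.66 in Sf3b1+/- cells, from 180, 88.6, 126 and 194 units. With 1 array a group neither contrast was tested.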

How the results depend on the processing

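The AK medians stayed below the NM_ medians in both genotype comparisons under the 3 alternatives that could change the gap (quantile normalization, normexp, the wider filter); the others multiply each array by a constant, or nearly so, and leave it as it is. Counts that moved by over 1.5 times were as follows. With the percentile over all probes, 3 AK probes (1 before) were 2-fold lower after transplantation in both genotypes, and limma called 13 for setting (54 before); the deposited series table gave 3 and 9. Quantile normalization gave 2 probes 2-fold higher in Sf3b1+/- native and 5 in transplanted cells, 2 lower after transplantation, and 0 limma setting calls (smallest adjusted p 0.0697). Spike-in scaling gave 6 higher and 8 lower in native, 45 higher and 4 lower in transplanted cells, 32 higher and 4 lower in both settings, 120 higher and 0 lower after transplantation, and 28 genotype and 531 setting calls. Admitting probes detected on at least 2 arrays (1053) gave 11 higher and 39 lower in native, 9 higher and 58 lower in transplanted cells, 7 higher in both settings, 5 lower after transplantation, and 0 setting calls (smallest adjusted p 0.0607). The normexp correction on the median signal, chosen after seeing the data, gave 4 lower in native, 0 higher and 7 lower in transplanted cells, 0 higher and 13 lower in both settings, 4 higher and 0 lower after transplantation, and 55 genotype and 129 setting calls; AK minus NM_ medians after transplantation became 0.08 (wild type) and -0.09 (Sf3b1+/-), from 0.14 and -0.03. Unless a share over all compared probes was given above, these counts describe the processing and are not read as a result about AK probes. The causes were not tested. Of 212 differences of named probes, those of at least 2-fold kept their sign under every alternative, but 52 smaller ones changed sign under spike-in scaling, 4 of them at least 1.5-fold before, and at most 21 under another alternative (all under 1.5-fold); 14 moved beyond their scanner error under quantile normalization, 194 under spike-in scaling and 78 under normexp.

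No paired analysis was possible because each group has 1 array and the groups share only 1 replicate number. Leaving out 1 array removes a group and leaves no residual degrees of freedom. Dim probes limit the folds: the lowest signals of any detected probe were 18.9 to 22 units.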
